A study of Homo sapiens with 6 samples.

Results

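The genes described here make, sense and remove prostaglandins, and were picked by name from the gene table of the series: PLA2G4A, which releases the substrate, PTGS1 and PTGS2, the cyclooxygenases, PTGES, PTGES2, PTGES3 and PTGIS, the terminal synthases, PTGER2 and PTGER4, receptors for prostaglandin E2, and HPGD, which inactivates prostaglandins. All 10 were among the 33900 genes of the table. LX-2 is an immortalised human hepatic stellate cell line, labelled WT, and RNA was sequenced from 3 samples given rhSema3C, recombinant human semaphorin 3C, at 300 ng/ml for 48 h and from 3 samples given PBS for the same time. Both groups grew in the same serum-containing medium, the samples are labelled as biological replicates of this 1 line, and the comparison asked which genes respond to the added protein.

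Prostaglandins are short-lived lipid signals made from arachidonic acid, which a phospholipase cuts from membranes. Cyclooxygenases turn it into prostaglandin H2, from which separate terminal synthases make prostaglandin E2, prostacyclin and the other prostanoids, and HPGD ends the signal by oxidising them. The receptors EP2 and EP4 pass prostaglandin E2 on through cyclic AMP, and hepatic stellate cells are known to make and to respond to prostanoids.

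PTGS2 and PLA2G4A lie near each other on chromosome 1 and both differed between the groups, PTGS1 is the isozyme that makes the same product as PTGS2, and PTGER4 is the more abundant of the prostaglandin E2 receptors, so the 250 bases before the start of each of these 4 genes are shown. They were taken from RefSeq on GRCh38.p14, which held such a window for 9 of the 10 genes (all but PTGIS), and each reads 5′ to 3′ along the gene. The PTGS2 window is chr1:186680424-186680673 on the minus strand, the PLA2G4A window chr1:186828699-186828948 on the plus strand, the PTGS1 window chr9:122370283-122370532 on the plus strand (the nearer of 2 RefSeq starts) and the PTGER4 window chr5:40679665-40679914 on the plus strand. Capitals mark matches, on either strand, to 7 motifs. These were the TATA box, searched as TATAAA, the cyclic AMP response half-site, searched as CGTCA, and a C/EBP-like site, searched as TTNCNNAA. The others were the AP-1 site, searched as TGANTCA, the CCAAT box, searched as those letters, the GC box, searched as GGGCGG, and the NF-κB consensus, searched as GGGRNWYYCC. N stands for any base, R for A or G, W for A or T and Y for C or T.
PTGS2: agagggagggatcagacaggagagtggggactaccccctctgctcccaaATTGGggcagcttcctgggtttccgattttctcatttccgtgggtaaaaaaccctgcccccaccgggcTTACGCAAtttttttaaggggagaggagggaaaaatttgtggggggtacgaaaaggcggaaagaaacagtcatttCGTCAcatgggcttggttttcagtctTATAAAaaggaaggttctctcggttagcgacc
PLA2G4A: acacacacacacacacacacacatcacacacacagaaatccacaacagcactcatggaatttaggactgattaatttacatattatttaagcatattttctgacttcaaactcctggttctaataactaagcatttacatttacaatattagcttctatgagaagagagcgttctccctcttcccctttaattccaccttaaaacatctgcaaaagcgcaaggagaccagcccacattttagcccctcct
PTGS1: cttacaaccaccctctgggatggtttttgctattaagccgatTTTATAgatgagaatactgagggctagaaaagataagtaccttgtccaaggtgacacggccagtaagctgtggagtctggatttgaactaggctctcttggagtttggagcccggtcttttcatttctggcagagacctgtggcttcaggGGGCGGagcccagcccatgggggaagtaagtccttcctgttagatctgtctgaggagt
PTGER4: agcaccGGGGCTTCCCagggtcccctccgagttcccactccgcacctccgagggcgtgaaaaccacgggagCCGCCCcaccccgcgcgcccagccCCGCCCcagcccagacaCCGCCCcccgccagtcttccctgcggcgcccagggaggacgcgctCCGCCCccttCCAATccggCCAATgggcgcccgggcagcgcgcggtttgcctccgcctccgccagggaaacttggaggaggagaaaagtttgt

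In the PTGS2 window, counting back from the start, a CCAAT box on the reverse strand lay at -201 to -197, a C/EBP-like match that reads on both strands at -133 to -126, a cyclic AMP half-site at -58 to -54 and a TATA box at -32 to -27. The PTGS1 window held a GC box at -58 to -53 and, on the reverse strand, a TATA box match at -208 to -203. The PTGER4 window held 1 NF-κB consensus match at -244 to -235, 4 GC boxes and 2 CCAAT boxes. The PTGS2 window held no exact match to the NF-κB letters, but sites that depart from the searched letters were left unmarked, so this does not show that a site is absent. None of the 7 motifs was found in the PLA2G4A window, and none of the marked matches overlapped a match to a different motif. Over 35116 RefSeq windows of the same length, the TATA box was found in 10.7%, the half-site in 21.2%, the C/EBP-like site in 33.2%, the AP-1 site in 6.57%, the CCAAT box in 32.0%, the GC box in 42.6% and the NF-κB consensus in 5.21%, so a match is a description of these letters and not of binding. G and C made up 50.4% of the PTGS2 window, 49.6% of the PTGS1 window, 38.8% of the PLA2G4A window and 72.8% of the PTGER4 window.

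Total counts ranged from 68267808 to 89245585 per sample. The share of counts from mitochondrial genes was 4.75 to 5.42% in the PBS samples and 3.73 to 3.93% in the rhSema3C samples. Of 14 stellate cell markers, 9 reached a mean of 0.5 FPKM (FPKM are fragments scaled to transcript length and library size). At an adjusted p below 0.05 in edgeR's quasi-likelihood test, 7 of these were lower with rhSema3C, 0 higher and 2 did not pass. Over all genes tested, 30.8% were lower and 32.2% higher. The 7 were COL1A1, COL3A1, ACTA2, VIM, THY1, TIMP1 and SPARC. The summed level over the 14 markers was 1522 to 1573 FPKM in the PBS samples and 1205 to 1273 FPKM in the rhSema3C samples. VIM, the filament protein vimentin, had the highest mean of them, 935 FPKM, whereas COL1A2, PDGFRA, DES, DCN and LRAT, which also define stellate cells, were near absent, with mean levels of 0.109, 0.138, 0.0252, 0.0079 and 0.001 FPKM. Defining markers of other cells, ALB, PTPRC, PECAM1 and EPCAM, had mean levels of 0.0052, 0.0044, 0.0588 and 0.0117 FPKM. The hepatocyte markers summed to 2.65 to 3.15 FPKM with PBS and 3.52 to 4.16 FPKM with rhSema3C, nearly all of it from SERPINA1, which rose by 0.37 on the log2 scale (edgeR adjusted p = 0.00229). The endothelial markers summed to 1.47 to 1.88 FPKM with PBS and 1.94 to 2.35 FPKM with rhSema3C, where VWF went from 0.101 to 0.659 FPKM on average, a rise in the fit over all genes (edgeR adjusted p = 1.84e-10). The sums of the epithelial markers overlapped between the groups and were at most 1.43 FPKM with PBS and 1.19 FPKM with rhSema3C. The list of macrophage markers, of which PTPRC was near absent but CD68 had a mean of 80.2 FPKM, summed to 95.3 to 104 FPKM in the PBS samples and 67.5 to 73.2 FPKM in the rhSema3C samples. Apart from the epithelial sum, these shares and sums moved with the treatment, and their part in the results on the prostaglandin genes was not tested.

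The cyclooxygenase PTGS2 rose 2.09-fold with rhSema3C, PLA2G4A rose 1.41-fold, and the synthases PTGES2 and PTGES3 and the receptor PTGER4 fell. HPGD, expressed near the limit of detection, was lower in every rhSema3C sample, while PTGES and the receptor PTGER2 did not pass the test. Among the 14178 genes with a mean of at least 0.5 FPKM over the 6 samples, 7 of the 10 prostaglandin genes were tested, and at an adjusted p below 0.05 in edgeR's quasi-likelihood test 2 of them were higher and 3 lower. Of all 14178 genes, 32.2% were higher and 30.8% lower by the same rule, so these counts lie near the background and say nothing about the prostaglandin genes as a list. Over the 7 genes the log2 fold change had a median of -0.19, against 0.02 over all genes tested. PTGS2 was the 1 gene of the 7 that also passed a fold of 2, as did 5.23% of all genes tested in either direction. In cultures measured in bulk, a smaller share of cells that express a gene and less RNA per cell cannot be told apart.

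**Figure D1:**
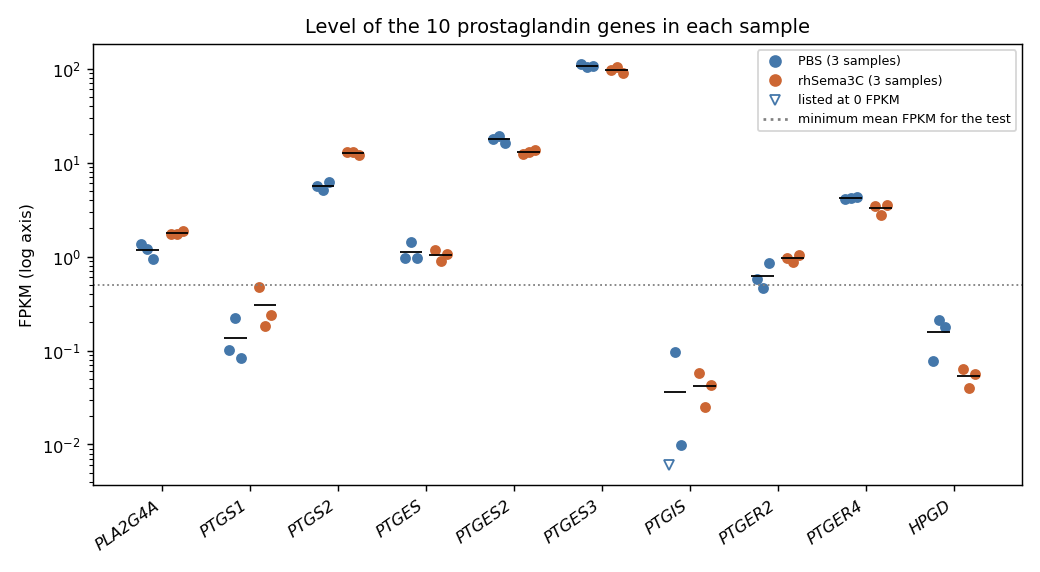
Level of each of the 10 prostaglandin genes in the 6 samples, in FPKM on a log scale, with 1 point per sample and the bar at the group mean. PTGES3 lies highest at 90.7 to 112 FPKM and PTGIS lowest, and the PTGS2 points of the groups lie apart at 5.08 to 6.15 FPKM with PBS and 12.2 to 12.9 FPKM with rhSema3C.

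PLA2G4A (ENSG00000116711, chr1:186828949-186988981, plus strand) encodes cytosolic phospholipase A2, the enzyme that frees arachidonic acid from membrane phospholipids after a stimulus. Its level was 1.35, 1.21 and 0.952 FPKM in PBS replicates 1 to 3 and 1.73, 1.73 and 1.86 FPKM in rhSema3C replicates 1 to 3. All 3 rhSema3C samples were above all 3 PBS samples, as were 34.6% of the genes tested. The log2 fold change was 0.49 (SE 0.17, 95% interval 0.14 to 0.85), with an adjusted p of 0.0143 in edgeR's test. It no longer passed without PBS replicate 3 (log2 fold change 0.37, edgeR adjusted p = 0.0748) or without rhSema3C replicate 3 (0.46, edgeR adjusted p = 0.0512).

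PTGS2 (ENSG00000073756, chr1:186671791-186680423, minus strand) encodes cyclooxygenase-2, the inducible form that inflammatory signals switch on. Its level was 5.66, 5.08 and 6.15 FPKM in the PBS samples and 12.9, 12.9 and 12.2 FPKM in the rhSema3C samples. These rest on 2713, 2000 and 2264 counts with PBS and 5812, 6183 and 5280 with rhSema3C. All 3 rhSema3C samples were above all 3 PBS samples, and the spread within either group was small beside the gap. On the CPM scale, counts normalised to a common library size, the mean was 31.5 ± 2.85 (SD, n = 3) with PBS and 65.8 ± 2.38 (SD, n = 3) with rhSema3C. The log2 fold change was 1.07 (SE 0.07, 95% interval 0.92 to 1.21), with an adjusted p of 1.54e-11 in edgeR's test. Under all 14 alternatives tried it stayed between 1.00 and 1.17, past the threshold in each. Among the 7345 genes with a positive log2 fold change, PTGS2 stood at position 422 by size and 150 by p. PACERR, a non-coding RNA that starts 198 bases from PTGS2 on the opposite strand, had 4, 16 and 8 counts with PBS and 14, 12 and 8 with rhSema3C, few beside those of PTGS2.

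The genes whose levels followed PTGS2 most closely over the 6 samples, by the root mean square distance of log2 CPM after centring on the PBS mean, were LOX (0.0383), GJA1 (0.046) and ACAD11 (0.0478). LOX encodes lysyl oxidase, which cross-links collagen, GJA1 the gap junction protein connexin 43, and ACAD11 an acyl-CoA dehydrogenase. Their log2 fold changes were 1.05 (SE 0.06), 1.11 (SE 0.07) and 1.05 (SE 0.09). They were chosen for this likeness, so these values describe the choice.

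PTGS1 (ENSG00000095303, chr9:122370530-122395703, plus strand) encodes cyclooxygenase-1, the form that many tissues express all the time. Its level was 0.102, 0.224 and 0.0835 FPKM in the PBS samples and 0.48, 0.184 and 0.242 FPKM in the rhSema3C samples, from 34 to 98 and 97 to 239 counts. The groups overlapped, since PBS replicate 2 was above rhSema3C replicate 2, and the mean of 0.219 FPKM was below the minimum for testing. In a fit over all 33900 genes the log2 fold change was 1.02 (SE 0.43), with an adjusted p of 0.119 in edgeR's test. It passed only when PBS replicate 2 was left out (1.59, edgeR adjusted p = 0.0052) or rhSema3C replicate 2 (1.30, edgeR adjusted p = 0.0334). PTGS2 made up 95.8 to 98.7% of the cyclooxygenase FPKM in each of the 6 samples, with a mean of 97.6% in the PBS and 97.7% in the rhSema3C samples.

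PTGES3 (ENSG00000110958, chr12:56663341-56688408, minus strand), the cytosolic prostaglandin E synthase, is better known as p23, a co-chaperone of HSP90. It was the most abundant of the 10 genes. Its level was 403, 375 and 387 CPM in the PBS samples and 325, 347 and 304 CPM in the rhSema3C samples. The groups did not overlap on this scale, as for 33.3% of all genes tested in the lower direction, though on the FPKM scale the lowest PBS sample and the highest rhSema3C sample both read 103. It fell by 0.26 on the log2 scale (SE 0.05, 95% interval -0.36 to -0.15), with an adjusted p of 0.000101 in edgeR's test, and by 0.15 when scaled to library size alone (edgeR adjusted p = 0.0113). The pseudogene PTGES3P1 had 173 to 325 counts per sample against 25422 to 34624 for PTGES3, and reads that match both cannot be assigned with certainty.

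PTGES2 (ENSG00000148334, chr9:128120693-128128418, minus strand) encodes a membrane-associated prostaglandin E synthase. Its level was 18.0, 19.1 and 16.0 FPKM with PBS and 12.4, 12.9 and 13.7 FPKM with rhSema3C, so that the lowest PBS sample was above the highest rhSema3C sample. It fell by 0.55 on the log2 scale (SE 0.07, 95% interval -0.70 to -0.40), with an adjusted p of 1.01e-06 in edgeR's test. The change lay between -0.62 and -0.42 under the 14 alternatives.

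PTGES (ENSG00000148344, chr9:129738331-129753042, minus strand) encodes microsomal prostaglandin E synthase-1, the inducible synthase that is often coupled to cyclooxygenase-2. Its level was 0.959, 1.42 and 0.96 FPKM in the PBS samples and 1.18, 0.901 and 1.07 FPKM in the rhSema3C samples. PBS replicate 2 was the highest and rhSema3C replicate 2 the lowest of all 6, so the groups overlapped. Of the other samples, rhSema3C replicates 1 and 3 lay above PBS replicates 1 and 3. The log2 fold change was -0.19 (SE 0.24, 95% interval -0.68 to 0.30), with an adjusted p of 0.492 in edgeR's test, and 0.03 without PBS replicate 2. A change of the size seen for PTGS2 lies outside this interval.

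Per length, PTGES3 made up 85.1 ± 1.53% (SD, n = 3) of the FPKM of the 3 prostaglandin E synthases with PBS and 87.3 ± 1.14% (SD, n = 3) with rhSema3C. PTGES2 made up 14.0 ± 1.32% and 11.8 ± 1.06%, and PTGES 0.883 ± 0.228% and 0.949 ± 0.158%. The ranges of these shares overlapped between the groups for all 3 genes.

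PTGIS (ENSG00000124212, chr20:49503874-49568137, minus strand) encodes prostacyclin synthase. It had 0, 41 and 4 counts in the PBS samples and 28, 13 and 20 in the rhSema3C samples. PBS replicate 2 held nearly all the counts of its group and was above every rhSema3C sample. In the fit over all genes the log2 fold change was 0.11 (SE 1.14, 95% interval -2.40 to 2.63), with an adjusted p of 0.961 in edgeR's test, and leaving out 1 sample at a time moved it from -0.48 (without PBS replicate 1) to 2.97 (without PBS replicate 2), so that no difference was detectable at this depth.

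**Figure D2:**
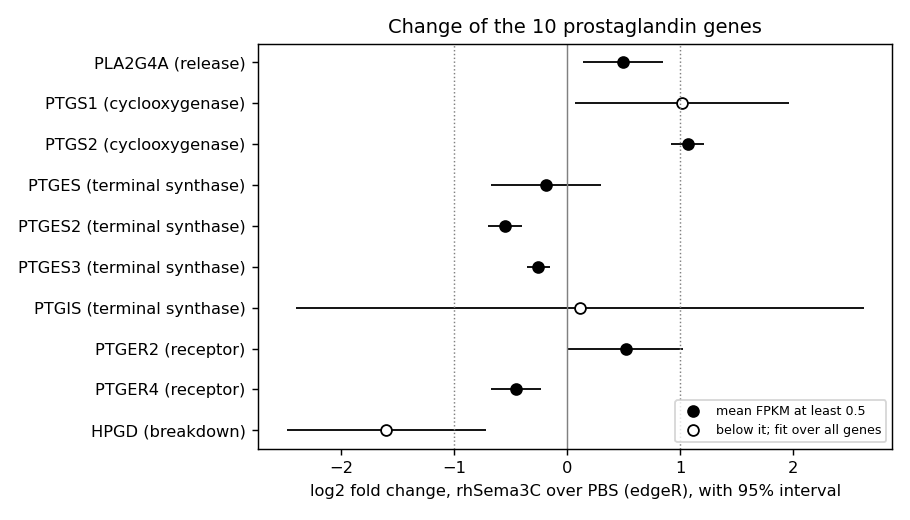
Log2 fold change of rhSema3C over PBS for the 10 prostaglandin genes from edgeR, with the 95% interval as a line. Filled points are the 7 genes with a mean of at least 0.5 FPKM, and open points the 3 genes below it, taken from the fit over all 33900 genes. PTGS2 lies at 1.07, and the intervals of PTGES2, PTGES3 and PTGER4 lie below 0.

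PTGER4 (ENSG00000171522, chr5:40679915-40693735, plus strand) encodes the receptor EP4. Its level was 4.06, 4.24 and 4.27 FPKM in the PBS samples and 3.48, 2.79 and 3.58 FPKM in the rhSema3C samples. All 3 rhSema3C samples were below all 3 PBS samples, and rhSema3C replicate 2 was the lowest. It fell by 0.45 on the log2 scale (SE 0.11, 95% interval -0.67 to -0.23), with an adjusted p of 0.000805 in edgeR's test, and by 0.28 with limma on log2(FPKM + 1) (limma adjusted p = 0.0109). The gene lies inside TTC33, which is annotated on the opposite strand and had 1383 to 2730 counts per sample, and the strand setting of the counting is not given in the sources used here.

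PTGER2 (ENSG00000125384, chr14:52314305-52328598, plus strand) encodes the receptor EP2. Its level was 0.576, 0.46 and 0.844 FPKM in the PBS samples and 0.957, 0.88 and 1.05 FPKM in the rhSema3C samples. PBS replicate 3 was well above the other PBS samples, and in CPM it exceeded rhSema3C replicate 2, with 2.21 against 2.15. The log2 fold change was 0.52 (SE 0.25, 95% interval 0.01 to 1.03), with an adjusted p of 0.0714 in edgeR's test. It passed the threshold without PBS replicate 3 (0.78, edgeR adjusted p = 0.0136), when scaled to library size alone (0.62, edgeR adjusted p = 0.0327), and with limma on log2(FPKM + 1) (0.28, limma adjusted p = 0.0333) or on log2(FPKM + 0.1) (0.58, limma adjusted p = 0.0362).

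The ratio of PTGER4 to PTGER2 in FPKM was 7.04, 9.20 and 5.06 in the PBS samples and 3.63, 3.17 and 3.41 in the rhSema3C samples. Each rhSema3C sample was below each PBS sample, and the mean log2 ratio differed by -1.02. PTGER4 made up 83.5 to 90.2% of the summed FPKM of both receptors with PBS and 76.0 to 78.4% with rhSema3C. These ratios are a description, with no test.

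HPGD (ENSG00000164120, chr4:174490175-174523065, minus strand) encodes the 15-hydroxyprostaglandin dehydrogenase, the first enzyme of prostaglandin breakdown. It had 40, 90 and 71 counts in the PBS samples and 32, 21 and 28 in the rhSema3C samples, which corresponds to 0.077, 0.213 and 0.179 FPKM and 0.0633, 0.0396 and 0.0566 FPKM. Every rhSema3C sample was below every PBS sample, as for 16.5% of all 33900 genes, but PBS replicate 1 lay near the rhSema3C samples. Its mean of 0.105 FPKM was below the minimum for testing. In the fit over all 33900 genes, where 13.1% were lower at an adjusted p below 0.05 and 1.36% were lower by more than 2-fold as well, it fell by 1.60 on the log2 scale (SE 0.42, 95% interval -2.48 to -0.72, edgeR adjusted p = 0.00506). That call was lost under 4 of 12 alternatives, among them without PBS replicate 2 (-1.30, edgeR adjusted p = 0.063), with limma on log2(FPKM + 1) (-0.13, limma adjusted p = 0.168) or on log2(FPKM + 0.1) (-0.71, limma adjusted p = 0.141).

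By the exact two-sided permutation test on log2 CPM, whose smallest possible p with 3 against 3 samples is 0.1, PLA2G4A, PTGS2, PTGES2, PTGES3, PTGER4 and HPGD reached p = 0.1, as does each gene whose groups do not overlap, which were 34.6% of the genes tested in the higher and 33.3% in the lower direction. The exact permutation p was 0.2 for PTGER2, 0.3 for PTGS1, 0.5 for PTGIS and 0.7 for PTGES.

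Synthesis, by PTGS2 and PTGES alone, was set against breakdown, by HPGD, as the ratio of FPKM within each sample. Scaling between samples cannot change this ratio. PTGES2 and PTGES3, which fell, were not set against HPGD. The ratio of PTGS2 to HPGD was 73.5, 23.8 and 34.3 in the PBS samples and 203, 327 and 215 in the rhSema3C samples. No PBS sample reached any rhSema3C sample, which follows from PTGS2 being higher and HPGD lower in every rhSema3C sample and is no separate result. The mean log2 ratio differed by 2.63 (6.19-fold), and the difference lay between 2.27 and 3.08 when each sample was left out in turn. The ratio of PTGES to HPGD, which was 12.5, 6.66 and 5.35 with PBS and 18.6, 22.8 and 18.8 with rhSema3C, differed by 1.39 on the log2 scale, with no overlap. Both ratios share HPGD, whose few counts set their precision.

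The ratio of PTGS2 to PLA2G4A, which compares cyclooxygenase with the enzyme before it, was 4.19, 4.19 and 6.46 with PBS and 7.42, 7.47 and 6.54 with rhSema3C. The highest PBS sample nearly reached the lowest rhSema3C sample, and the mean log2 ratio differed by 0.56. The ratio of PTGS2 to PTGS1 overlapped, at 22.7 to 73.7 with PBS and 26.8 to 70.1 with rhSema3C, and its log2 difference of 0.01 went to -0.49 without PBS replicate 2 and to 0.39 at the other end. The ratio of PTGES to PTGES3 overlapped as well, with a log2 difference of 0.08 that ran from -0.038 to 0.30 when each sample was left out.

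**Figure D3:**
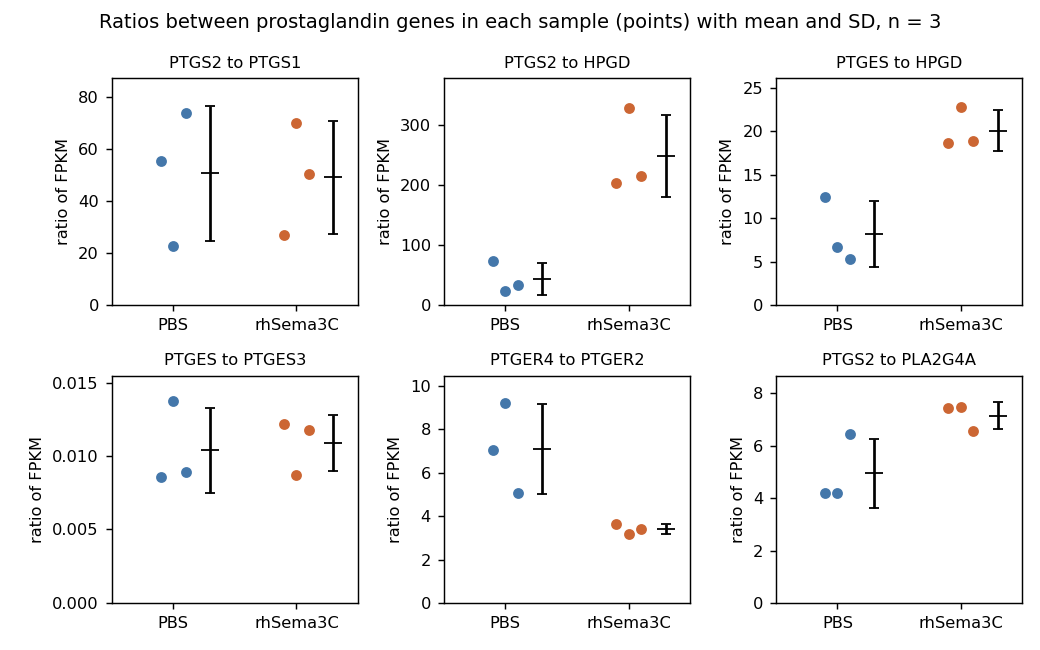
Ratio of the FPKM of one prostaglandin gene to another within each sample, on a linear axis from 0, with 1 point per sample and the group mean ± SD (n = 3) beside the points. The points for PTGS2 to HPGD lie at 23.8 to 73.5 with PBS and 203 to 327 with rhSema3C, and those for PTGS2 to PTGS1 overlap.

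The counts for the gene lists that follow are to be read beside the 32.2% of all genes tested that were higher and the 30.8% that were lower. The genes for supply and return of arachidonic acid, apart from PLA2G4A, were divided. Of 13 genes tested, 4 rose, 6 fell and 3 did not pass the test, and the list had a median of -0.08 on the log2 scale. The list joins genes with opposite roles, so its counts and median do not measure supply. Those that rose were FADS2 (0.87, SE 0.04) and FADS1 (0.65, SE 0.05), the desaturases of polyunsaturated fatty acid synthesis, ELOVL5 (0.56, SE 0.04), an elongase of the same route, and ACSL4 (0.45, SE 0.07), which activates arachidonic acid as its CoA ester. FADS2 was the most abundant gene of the list, with 60.7 ± 0.775 FPKM (SD, n = 3) in the PBS and 119 ± 5.13 FPKM (SD, n = 3) in the rhSema3C samples. Those that fell were PLA2G15 (-0.83, SE 0.05), a lysosomal phospholipase, DAGLA (-0.77, SE 0.08), DAGLB (-0.58, SE 0.07) and MGLL (-0.60, SE 0.05), which release arachidonic acid by way of diacylglycerol and 2-arachidonoylglycerol, and LPCAT3 (-0.40, SE 0.06) and MBOAT7 (-0.39, SE 0.04), which put it back into phospholipids.

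Among the 4 other prostanoid synthases tested, 0 rose, 3 fell and 1 did not pass, with a median log2 fold change of -0.57. With 4 genes, and 30.8% of all genes tested lower, this does not set the synthases apart as a list. PRXL2B (-0.89, SE 0.06), a prostamide and prostaglandin F synthase, CBR1 (-0.65, SE 0.05), a carbonyl reductase that converts prostaglandin E2, and AKR1B1 (-0.50, SE 0.04), an aldo-keto reductase that makes prostaglandin F2α, fell. AKR1C3, another prostaglandin F synthase, had a log2 fold change of 0.12 (SE 0.10, edgeR adjusted p = 0.345). TBXAS1, thromboxane synthase, was below the minimum with a mean of 0.233 FPKM. In the fit over all genes, where 13.1% were lower, it fell by 1.25 (SE 0.27, edgeR adjusted p = 0.000742). It had 127, 172 and 174 counts with PBS and 71, 81 and 90 with rhSema3C.

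Of 3 genes of prostanoid transport and breakdown tested, ABCC4 (0.23, SE 0.07), which exports prostaglandins, and PTGR1 (0.23, SE 0.05), which reduces the HPGD product, rose, and CBR3 (-0.90, SE 0.11), a carbonyl reductase related to CBR1, fell. PTGR2, of the same list, was below the minimum with a mean of 0.391 FPKM. It had 246, 139 and 142 counts with PBS and 386, 351 and 342 with rhSema3C. In the fit over all genes, where 4674 of 33900 were higher, it rose by 0.80 (SE 0.19, edgeR adjusted p = 0.00209), whereas HPGD fell. The uptake carrier SLCO2A1 was near absent, with a mean of 0.0119 FPKM.

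Of the other 7 prostanoid receptors, 3 were tested, and all differed. PTGFR, the prostaglandin F2α receptor, had 0.861, 0.924 and 0.817 FPKM with PBS and 2.10, 2.79 and 2.70 FPKM with rhSema3C. All rhSema3C samples were well above all PBS samples, with a log2 fold change of 1.44 (SE 0.13, edgeR adjusted p = 1.84e-09), the largest rise among the prostanoid receptors tested. TBXA2R, the thromboxane receptor, fell by 0.81 on the log2 scale (SE 0.18), from 1.44 ± 0.131 FPKM to 0.881 ± 0.063 FPKM (SD, n = 3 each). PTGIR, the prostacyclin receptor, fell by 0.31 (SE 0.09), and at a mean of 4.78 FPKM its level per length was above that of PTGER4 at 3.74 FPKM. PTGER1 and PTGER3, the receptors EP1 and EP3, were below the minimum, with means of 0.278 and 0.0012 FPKM.

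In the lipoxygenase branch, which draws on the same arachidonic acid, 3 of 4 genes tested rose, 0 fell and 1 did not pass, a count too small to set the branch apart from the 32.2% of all genes tested that were higher. ALOX5AP, which presents arachidonic acid to 5-lipoxygenase, had 0.683, 0.722 and 0.93 FPKM with PBS and 1.77, 1.72 and 1.72 FPKM with rhSema3C, a log2 fold change of 1.05 (SE 0.22). LTB4R, a leukotriene B4 receptor (0.48, SE 0.07), and LTA4H, the leukotriene A4 hydrolase (0.41, SE 0.06), rose less. ALOX5, the 5-lipoxygenase itself, was near absent with a mean of 0.0751 FPKM, below the minimum for testing. ALOX12, another lipoxygenase, had a mean of 0.715 FPKM and was the gene that did not pass, with a log2 fold change of 0.14 (SE 0.22, edgeR adjusted p = 0.602).

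**Figure D4:**
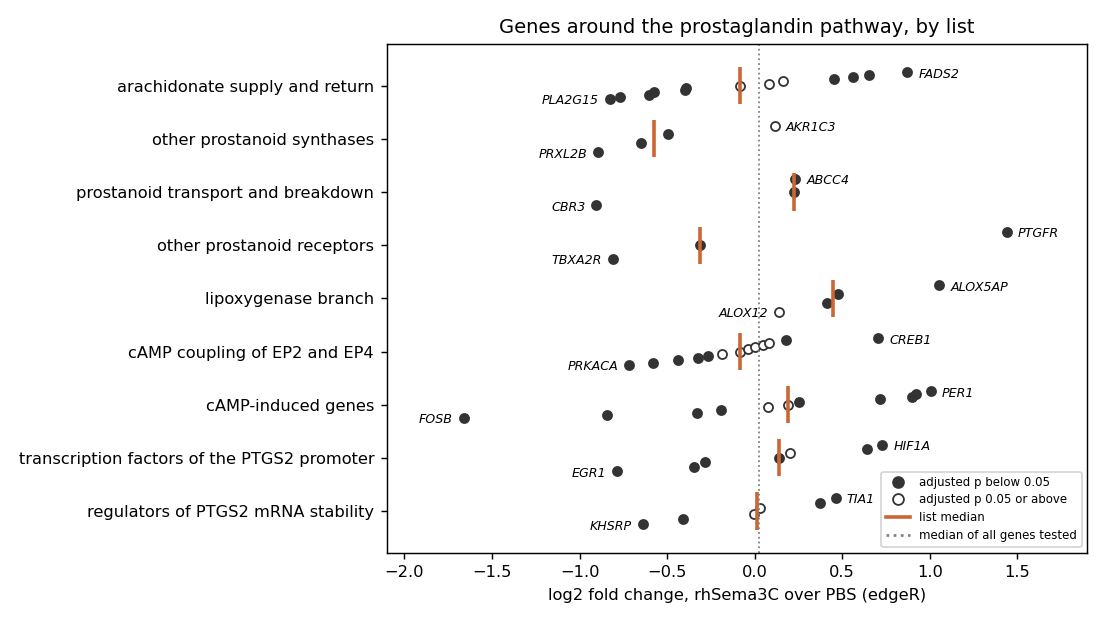
Log2 fold change of rhSema3C over PBS from edgeR for the tested genes of 9 lists around the prostaglandin pathway, filled where the adjusted p was below 0.05 and open otherwise, with the list median as a bar and the median of all genes tested as a dotted line. The furthest points are PTGFR at 1.44 and FOSB at -1.66, and most lists hold genes on both sides of 0.

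The genes that couple EP2 and EP4 to cyclic AMP gave 2 that rose, 5 that fell and 6 that did not pass among 13 tested, with a median log2 fold change of -0.08. CREB1, the transcription factor that the pathway activates, rose (0.71, SE 0.07), as did PRKAR1A (0.18, SE 0.04), a regulatory subunit of protein kinase A. PRKACA, its catalytic subunit, fell by 0.72 (SE 0.05), PRKAR2A by 0.58 (SE 0.05), and the adenylyl cyclases ADCY9, ADCY3 and ADCY6 by 0.44, 0.32 and 0.26. GNAS, the stimulatory G protein subunit and the most abundant gene of the list at a mean of 74.6 FPKM, had a log2 fold change of -0.04 (SE 0.04).

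Of 11 tested genes known to be induced by cyclic AMP, 5 rose, 4 fell and 2 did not pass, with a median log2 fold change of 0.19. PER1, a clock gene (1.01, SE 0.07), RGS2, which restrains G protein signals (0.92, SE 0.18), and the cyclic AMP phosphodiesterases PDE4D (0.90, SE 0.08) and PDE4B (0.72, SE 0.15) rose, and CREM, a transcription factor related to CREB1, rose by 0.25 (SE 0.11). FOSB and FOS, subunits of AP-1, fell by 1.66 (SE 0.10) and 0.84 (SE 0.11), and SIK1, a kinase, and DUSP1, a phosphatase of MAP kinases, by 0.33 and 0.19.

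Genes for transcription factors known to act on the PTGS2 promoter were split, with 3 of 7 that rose, 3 that fell and 1 that did not pass. HIF1A, the hypoxia factor, rose by 0.73 (SE 0.06) and CEBPD by 0.64 (SE 0.10), and NFKB1, the p105 and p50 subunit of NF-κB, by 0.14 (SE 0.05). EGR1 (-0.79, SE 0.06), JUN (-0.35, SE 0.04) and RELA (-0.28, SE 0.05), the p65 subunit of NF-κB, fell. CEBPB had a log2 fold change of 0.20 (edgeR adjusted p = 0.0509). Among 6 tested regulators of PTGS2 mRNA stability, TIA1, a translational silencer (0.46, SE 0.07), and ZFP36, which promotes decay (0.37, SE 0.08), rose, KHSRP, also a decay factor (-0.64, SE 0.05), and ELAVL1, the stabilising protein HuR (-0.41, SE 0.05), fell, and 2 did not pass.

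**Figure D5:**
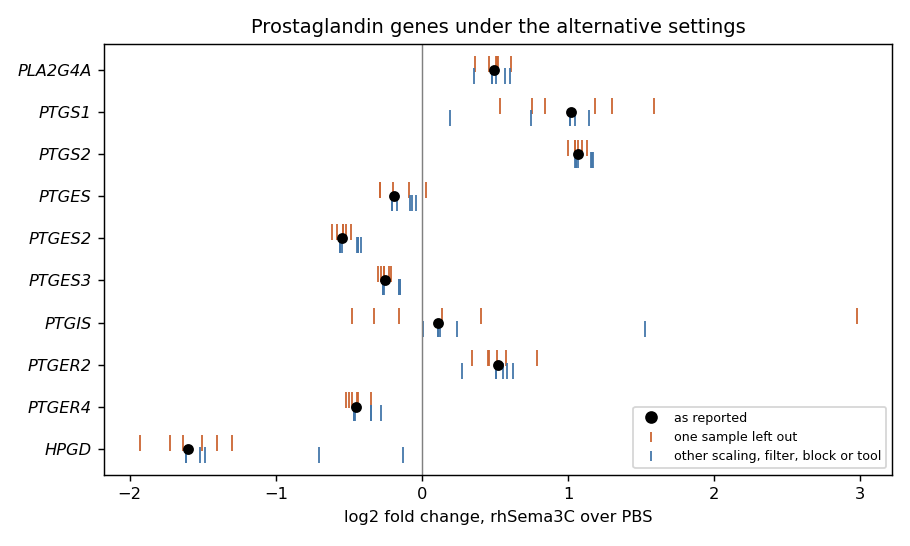
Log2 fold change of rhSema3C over PBS for the prostaglandin genes under the reported fit and the alternatives, with a black point for the reported value and a tick per alternative (upper ticks with 1 sample left out, lower ticks another scaling, minimum, block or tool). PTGS2 stays between 1.00 and 1.17, whereas PTGIS runs from -0.48 to 2.97.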

How the data were processed

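RNA of 6 LX-2 samples, 3 per group by their labels, was sequenced on an Illumina NovaSeq instrument. Per the file headers and values, the authors deposited raw whole-number counts for each gene. Beside them the authors deposited FPKM, in which fragments are scaled to transcript length and to library size. The aligner, counting tool, strand setting and genome build are not given in the sources used here. The table's coordinates lie on GRCh38. Counts were fitted with edgeR 4.0.16 (R 4.3.3), by the robust quasi-likelihood test with TMM factors and no covariate, for the 14178 genes with a mean of at least 0.5 FPKM, with Benjamini-Hochberg adjustment over those genes. CPM values use the TMM-scaled library sizes. Members below 0.5 FPKM, and VWF, PTGR2 and TBXAS1, were taken from a fit over all 33900 genes. DESeq2 1.42.0, limma 3.58.1 on log2(FPKM + 1) or log2(FPKM + 0.1), other scalings, other minimums, a replicate block and leaving out each sample were alternatives. In simulated counts for 14178 genes with 200 changed, the test recovered 86% of 2-fold and 99% of 4-fold changes, with 13 false calls. In the data themselves 32.2% of the genes tested were called higher and 30.8% lower. The simulation did not cover such a setting, so its rates may not hold there. No molecular identifiers were used, so counts are not counted molecules.

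The members and gene lists were chosen with earlier results of these data known. The genes named were the members, genes of the lists (first those past a fold of 2, then the largest change in each direction and the most abundant), overlapping or neighbouring genes, and the 3 genes most like PTGS2; the other list genes were named to complete each count after their values were seen. The listed genes PTGDS, HPGDS, PLA2G5, PLA2G2A, ALOX15B, CYSLTR1 and TTR were not analysed here. Upstream windows were searched for exact matches. The labels call the samples biological replicates without saying which cultures they came from, so p-values measure the spread between these samples.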

Additional observations from a re-analysis of the deposited data

How the results depend on the processing

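The direction and call of PTGS2, PTGES2, PTGES3 and PTGER4 held under every alternative in which each was tested, and the calls lost or gained for PLA2G4A, PTGS1, PTGER2 and HPGD are given with each gene, except that of HPGD under the replicate block, given last. The direction reversed for PTGES without PBS replicate 2 (log2 fold change 0.029, and -0.29 at the other end of the range) and for PTGIS without PBS replicate 1 (-0.48), PBS replicate 3 (-0.33) or rhSema3C replicate 1 (-0.16), with 2.97 at the other end. At an adjusted p below 0.05, 4571 of all genes tested were higher and 4371 lower, against 2619 and 2637 with a minimum of 5 FPKM, where fewer genes are tested, and 5697 and 3452 with library size alone, a scaling that moves the median log2 fold change of all genes from 0.02 to 0.13 (0.12 for limma on log2(FPKM + 0.1)), so that changes should be read relative to it. With a fold above 2 as well, the 458 higher genes became 169 by limma on log2(FPKM + 1), 854 with all genes tested and 163 with the minimum of 5 FPKM, and the 283 lower genes became 69, 462 and 69, and 186 with library size alone and 171 by limma on log2(FPKM + 0.1). Of the prostaglandin genes, 1 rather than 2 was higher at the minimum of 5 FPKM, where PLA2G4A is not tested, and 1 rather than 0 was lower by more than 2-fold with all genes tested (HPGD). Leaving out each sample gave 4190 to 4416 higher and 4073 to 4272 lower genes, 426 to 498 and 273 to 318 past the fold, 1 to 2 prostaglandin genes higher (1 without rhSema3C replicate 3) and 3 lower. The log2 difference of the ratio of PTGS2 to PTGS1 then ran from -0.49 to 0.39, and that of PTGES to PTGES3 from -0.038 to 0.30. CPM in place of FPKM gave ratio differences within the spread between replicates for all 6 ratios.

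Samples with the same replicate number did not deviate together (correlations of -0.077, -0.046 and -0.036), so the numbers were not taken as pairs. With a replicate block, 4372 genes were higher and 4201 lower, and among the prostaglandin genes 2 were higher and 3 lower, with PTGS2 at 1.07. HPGD was at -1.52 in the fit over all genes with the block (edgeR adjusted p = 0.0652).

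Depth limits HPGD, PTGS1 and PTGIS, which had 239 counts or fewer in every sample, so that differences in their levels are less certain than those of PTGS2 or PTGES3. The counts measure RNA at 1 time and dose, and neither enzyme activity nor the prostaglandins themselves.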
